A study of Mus musculus with 24 samples.

Results

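The genes described here are 9 that bind, store or move zinc and iron: the metallothioneins Mt1 and Mt2, the transporters Slc39a14, Slc30a1, Slc11a1, Slc11a2 and Slc40a1, the ferritin heavy chain Fth1 and the transferrin receptor Tfrc. They were taken by gene symbol from a table of read counts, and all 9 of the 55401 genes listed there under these names were found. All 9 passed the filter on low counts that left 11717 genes for testing. They were named for their function and not picked by a threshold on these counts, although earlier results of the same data were known when the set was drawn up.

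The RNA came from macrophages grown out of the bone marrow of wild-type C57BL/6J mice in medium conditioned by L929 cells. Cells received 30 µM S14, 100 ng/mL LPS or nothing, each over 3 h and over 18 h, which gives 6 groups of 4 libraries. S14 is sphingomyelin d18:1/14:0, a membrane lipid, and LPS is lipopolysaccharide, a component of the bacterial outer membrane that is sensed by Toll-like receptor 4. Libraries were made by QuantSeq, which reads the 3′ end of polyadenylated RNA, and each held between 3334182 and 6350251 gene reads.

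The libraries carried macrophage markers at a summed level of 17462 to 47522 CPM, where CPM is the read count in relation to the size of the library, scaled by the trimmed mean of M values (TMM). Of 10 erythroid markers 6 had no read in any library, and their sum reached at most 1.99 CPM. One library stood apart: in untreated replicate 4 at 18 h the log2 levels of the tested genes deviated from the group mean with an SD of 0.52, against 0.26 to 0.38 in the other 23 libraries. Where leaving it out changed a call of one of the 9 genes, the value without it is given. Every value is a level of RNA in a whole culture, where fewer cells of a type and less RNA per cell cannot be told apart.

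Metallothioneins are small cysteine-rich proteins that hold zinc and copper. Their genes are switched on by the zinc-sensing transcription factor MTF-1 through metal response elements in the promoter, and also by inflammatory signals. Zinc enters the cytosol through the SLC39 (ZIP) family and leaves it through the SLC30 (ZnT) family. Macrophages take up iron by the transferrin receptor and by digesting red cells, move it out of vesicles through the SLC11 transporters, store it in ferritin and release it through ferroportin, the product of Slc40a1. Iron regulatory proteins bind hairpins called iron-responsive elements in the RNA: in the 5′ UTR of ferritin and ferroportin they block translation, and in the 3′ UTR of Tfrc they protect the RNA from decay. Withdrawal of iron from microbes by macrophages during infection is often called nutritional immunity.

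The promoter sequences of 3 of the genes are shown because they are the zinc-responsive genes of the set for which a start site was at hand. Each is the 250 bases before the RefSeq start site on GRCm38.p6, plus strand, 5′ to 3′. Capitals mark matches to the core of the metal response element, searched on both strands as TGCACNC and TGCGCNC. The windows are chr8:94178839-94179088 for Mt1, chr8:94172368-94172617 for Mt2 and chr1:191906531-191906780 for Slc30a1.
Mt1: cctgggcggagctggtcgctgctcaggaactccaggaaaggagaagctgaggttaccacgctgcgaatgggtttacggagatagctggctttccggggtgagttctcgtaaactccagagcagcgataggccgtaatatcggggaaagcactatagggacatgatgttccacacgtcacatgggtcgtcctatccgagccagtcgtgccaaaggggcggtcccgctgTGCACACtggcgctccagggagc
Mt2: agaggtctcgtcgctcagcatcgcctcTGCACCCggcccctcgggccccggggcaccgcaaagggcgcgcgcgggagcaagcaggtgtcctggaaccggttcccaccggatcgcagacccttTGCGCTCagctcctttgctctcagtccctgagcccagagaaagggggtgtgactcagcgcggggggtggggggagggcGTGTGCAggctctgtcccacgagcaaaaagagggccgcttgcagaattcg
Slc30a1: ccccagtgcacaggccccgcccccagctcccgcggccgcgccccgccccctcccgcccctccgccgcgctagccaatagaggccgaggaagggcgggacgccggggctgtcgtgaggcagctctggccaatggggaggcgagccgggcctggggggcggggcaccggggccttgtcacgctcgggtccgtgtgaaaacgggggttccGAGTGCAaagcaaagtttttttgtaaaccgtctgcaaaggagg

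Over windows of 300 bases, which add the first 50 transcribed bases, Mt2 held 4 matches, Mt1 held 3 and Slc30a1 held 2. Of 32851 RefSeq windows of that length 25.7% held at least 1 match, 7.11% at least 2, 1.97% at least 3 and 0.517% at least 4. A window was at hand for 6 of the 9 genes. Tfrc had 2 matches, which overlap each other on opposite strands, in 1 of its 2 windows, and Slc11a1 and Fth1 had none of these letters in theirs. The other cores searched were the antioxidant response element TGACNNNGC, found in 1 place each in the Mt2 and Slc30a1 windows and in 12.4% of all windows, and the STAT site TTCNNNGAA and the NF-kB site, found in 8.3% and 8.46% of all windows and in none of these genes' windows. A match is a run of letters and not a measured binding site. The match counts hold for these windows only and need not cover the whole promoter. GENCODE starts Mt1 at 94179082 and Mt2 at 94172664, apart from the RefSeq sites used here.

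Matches to the iron-responsive element are shown for the 3 genes of the set in which a search by pattern found them. The search asked for a bulged C, a stem of 5 base pairs and the loop CAGTG followed by A, C or T in the GENCODE M21 UTRs (GRCm38), and at least 1 match was found in 133 of 22500 coding genes, or 0.591%. An element whose stem or loop departs from this pattern was missed, so a gene without a match, such as Slc11a2, may still hold one. Capitals mark the loop. The sites lie at chr1:45925471-45925487 on the minus strand for Slc40a1, chr19:9982738-9982754 on the plus strand for Fth1, and, on the plus strand, chr16:32631225-32631241, chr16:32631604-32631620, chr16:32631669-32631685 and chr16:32631716-32631732 for Tfrc.
Slc40a1 5′ UTR: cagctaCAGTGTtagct
Fth1 5′ UTR: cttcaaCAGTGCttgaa
Tfrc 3′ UTR, at 32631225: cggaagCAGTGCcttcc
Tfrc 3′ UTR, at 32631604: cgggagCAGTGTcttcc
Tfrc 3′ UTR, at 32631669: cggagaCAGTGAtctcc
Tfrc 3′ UTR, at 32631716: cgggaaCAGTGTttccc

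Slc40a1 and Fth1 thus each had 1 match, both in the 5′ UTR, and Tfrc had 4, all in the 3′ UTR. The tests that follow are edgeR quasi-likelihood F tests with Benjamini-Hochberg adjustment over all 11717 genes, with an adjusted p under 0.05 as the limit for a call. S14 changed 5 of the 9 genes at 3 h, all higher, beside 15.2% of all tested genes called (9.05% higher and 6.2% lower). At 18 h S14 changed 6 of the 9, of which 3 were higher and 3 lower, beside 24.3% of all genes (12.6% higher and 11.6% lower). LPS changed 7 of the 9 at 3 h, with 5 higher and 2 lower, beside 55.5% of all genes (25.3% higher and 30.2% lower). At 18 h LPS changed 7 of the 9, with 6 higher and 1 lower, beside 55.6% of all genes (27.3% higher and 28.3% lower). The median log2 fold change of the 9 was 0.24 for S14 at 3 h, 1.01 for LPS at 3 h, 0.32 for S14 at 18 h and 1.35 for LPS at 18 h. Over all tested genes the same medians were -0.03, -0.11, -0.02 and -0.04.

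The libraries also held 705 to 2588 reads of added spike-in RNAs, and scaling by them asks about RNA relative to the spike-in, not relative to the other genes. How much spike-in went into each sample was not known here. Spike-in reads were 0.01337% of the total in untreated replicate 4 at 18 h, the lowest of all, and up to 0.04178% in that group. Over all genes, the change to spike-in scaling shifted the median log2 fold change by 0.11 for S14 and 0.34 for LPS at 3 h, and by -0.97 for S14 and -0.64 for LPS at 18 h, or -0.48 and -0.16 without untreated replicate 4. Where this choice changed a call of one of the 9 genes, its spike-in value is given with the result.

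**Figure D1:**
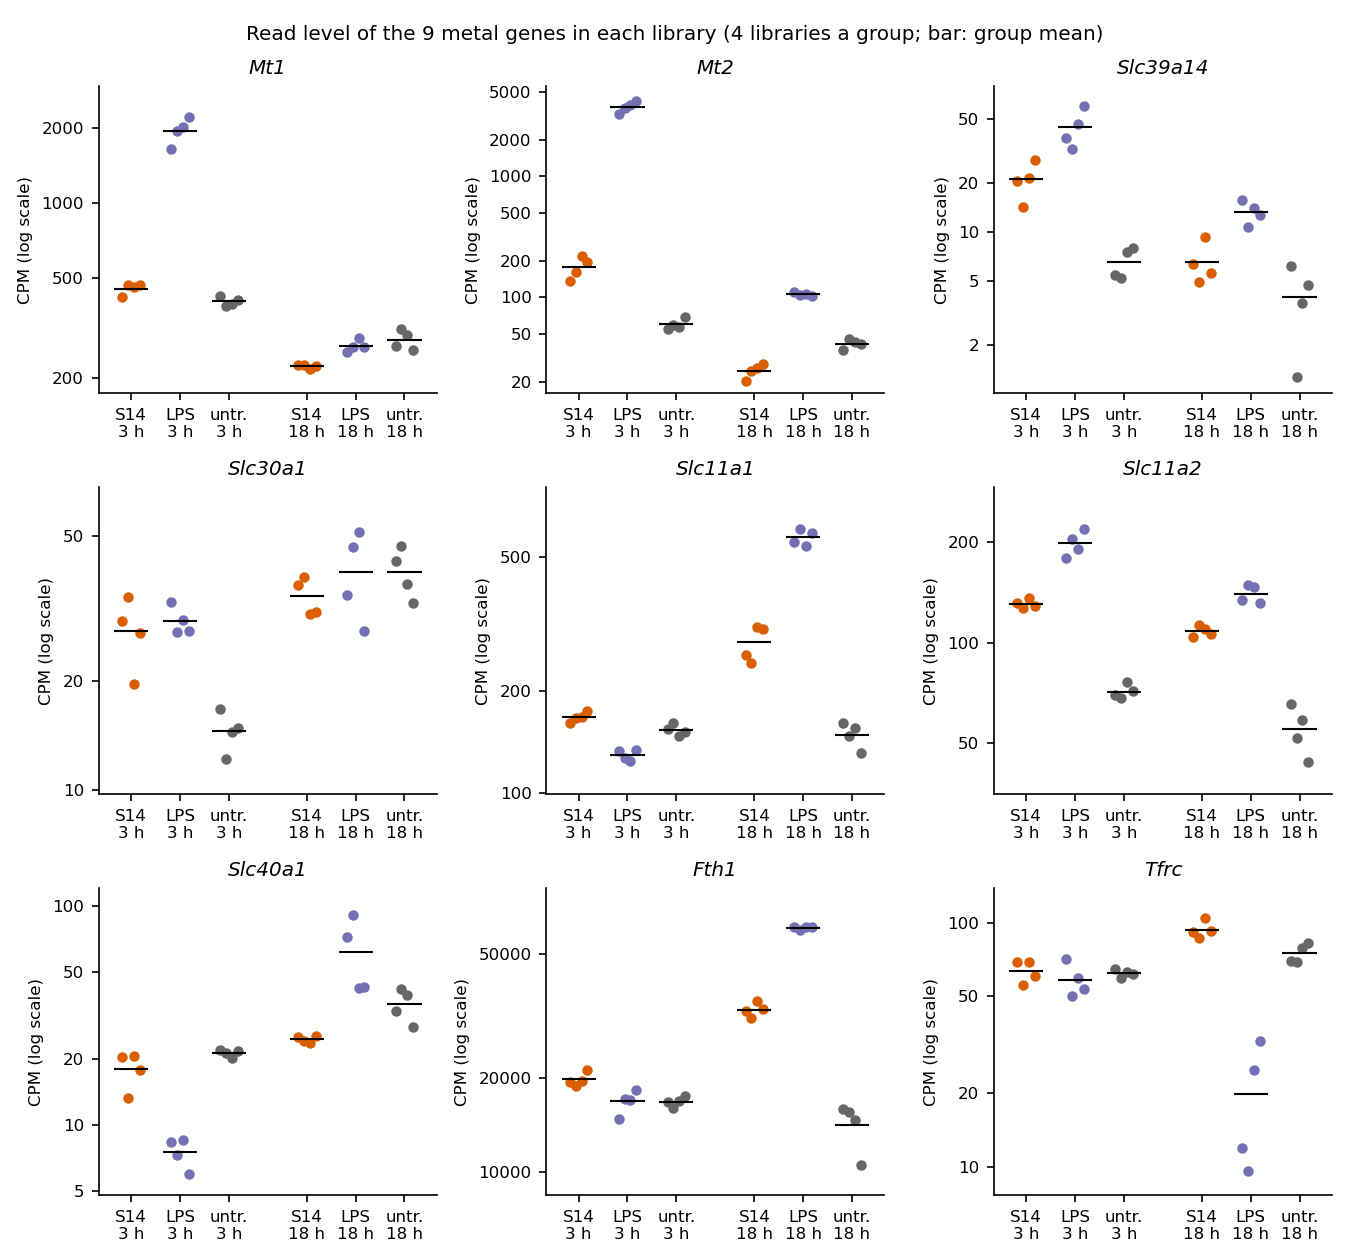
Level of each gene in every library, in TMM-scaled CPM on a log axis, with S14 and LPS left of untreated cells at each time. Points are libraries and bars are group means (n = 4). Mt2 reached 3254 to 4188 CPM with LPS at 3 h, Fth1 stood near 61000 CPM with LPS at 18 h (59826 to 61165), and Tfrc was at 9.56 to 32.8 CPM in the same 18 h LPS libraries.

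**Figure D2:**
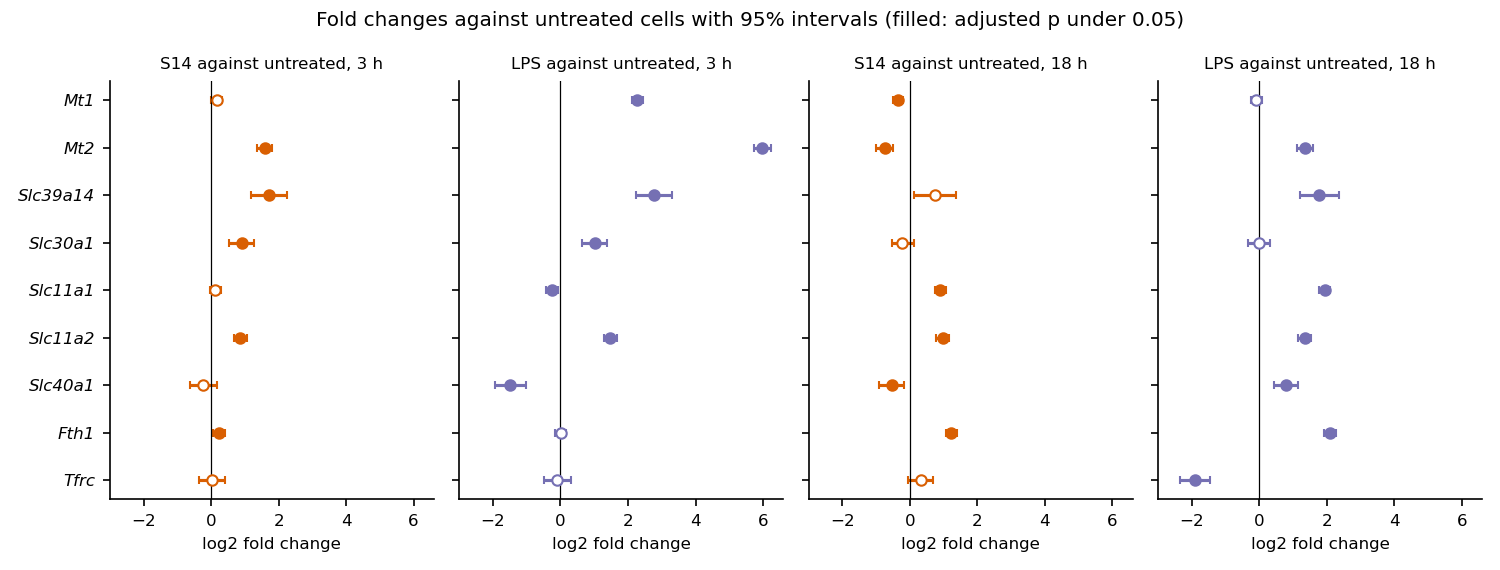
Log2 fold change of the 9 genes against untreated cells of the same time, with 95% intervals from the edgeR fit. Filled points had an adjusted p under 0.05. The largest values were those of Mt2 (5.98) and Slc39a14 (2.78) with LPS at 3 h, and the lowest was that of Tfrc with LPS at 18 h (-1.91).

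Both metallothioneins rose at 3 h with LPS, and of the pair only Mt2 passed the test with S14. Mt1 (ENSMUSG00000031765, chr8:94179082-94180327, plus strand, GRCm38) had 1638, 1933, 2013 and 2198 CPM in the LPS libraries at 3 h, against 424, 388, 393 and 409 CPM in untreated libraries. That is a log2 fold change of 2.27 ± 0.08 (SE; edgeR adjusted p = 1.8e-26). With S14 at 3 h Mt1 had 419, 468, 459 and 469 CPM, which overlaps the untreated range, and its log2 fold change of 0.17 (95% interval 0.01 to 0.33) did not pass (edgeR adjusted p = 0.157); in a fit of the S14 and untreated libraries of that time alone it did (0.18; edgeR adjusted p = 0.0286).

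Mt2 (ENSMUSG00000031762, chr8:94172664-94173568, plus strand), which ends 5513 bases before Mt1 begins, had larger fold changes. At 3 h it had 138, 162, 219 and 198 CPM with S14, against 54.4, 58.8, 56.6 and 69.5 CPM in untreated libraries. Its S14 log2 fold change was 1.59 ± 0.11 (SE; edgeR adjusted p = 2.18e-14), a 3.01-fold rise with no overlap between the groups. With LPS at 3 h the 4 libraries had 3254, 3686, 3915 and 4188 CPM. This is a log2 fold change of 5.98 ± 0.12 (SE; edgeR adjusted p = 5.93e-32), or 63-fold. S14 therefore stood between the untreated and the LPS libraries for Mt2, and the S14 libraries were lower than the LPS libraries by 4.39 ± 0.11 on the log2 scale (edgeR adjusted p = 3.31e-28). For Mt1 the log2 fold change of S14 over LPS at 3 h was -2.10 ± 0.08 (edgeR adjusted p = 7.44e-25).

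By 18 h both metallothioneins were far below their 3 h level with LPS, and S14 libraries held less of both than untreated ones. Mt1 had 225, 224, 217 and 222 CPM with S14, against 267, 314, 296 and 257 CPM in untreated libraries, and its log2 fold change was -0.35 ± 0.08 (edgeR adjusted p = 7.59e-04). Mt2 had 20.3, 24.7, 26.1 and 28.1 CPM with S14, against 36.8, 45.1, 42.9 and 41 CPM in untreated libraries. All S14 libraries lay below all untreated ones for both genes. The Mt2 log2 fold change was -0.75 ± 0.12 (edgeR adjusted p = 1.64e-05), and without untreated replicate 4 the values were -0.40 for Mt1 and -0.75 for Mt2.

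With LPS at 18 h the pair parted. Mt1 had 253, 265, 288 and 266 CPM with LPS, which overlaps the untreated range of 257 to 314 CPM. Its log2 fold change was -0.08 (95% interval -0.24 to 0.08, edgeR adjusted p = 0.402). Mt2 had 112, 105, 107 and 102 CPM with LPS, all above the untreated libraries, and a log2 fold change of 1.36 ± 0.11 (edgeR adjusted p = 3.1e-13). Under spike-in scaling this Mt2 value was 0.70 (edgeR adjusted p = 0.0663), and 1.20 without untreated replicate 4 (edgeR adjusted p = 1.97e-05). The change of the LPS response from 3 h to 18 h, tested as an interaction, was -4.62 ± 0.16 for Mt2 (edgeR adjusted p = 2.66e-24) and -2.35 ± 0.11 for Mt1 (edgeR adjusted p = 2.95e-21). For S14 the same interaction was -2.33 ± 0.17 for Mt2 (edgeR adjusted p = 2.39e-13) and -0.52 ± 0.11 for Mt1 (edgeR adjusted p = 6.25e-04). Untreated cells also had less of both at 18 h than at 3 h, with log2 fold changes of -0.51 ± 0.08 for Mt1 and -0.52 ± 0.12 for Mt2 (edgeR adjusted p = 1.21e-06 and 3.55e-04), but under spike-in scaling neither passed (0.30 and 0.31, and -0.14 and -0.19 without untreated replicate 4 at 18 h).

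The number of Mt2 reads per Mt1 read within a library does not depend on how libraries are scaled. This ratio was chosen after the values of the genes had been seen, and only its change between groups is read, since the 2 transcripts may be captured with different efficiency. At 3 h it was 0.393 ± 0.0683 with S14 and 1.94 ± 0.0383 with LPS, against 0.148 ± 0.0172 in untreated cells (SD, n = 4 each). At 18 h it was 0.112 ± 0.0158 with S14 and 0.398 ± 0.0314 with LPS, against 0.146 ± 0.00924 in untreated cells. The 4 libraries of each treated group lay apart from those of their control at both times. A two-sided exact permutation test gave p = 0.0286, the smallest that 4 against 4 libraries allow, in the 4 comparisons with untreated cells and in both comparisons of S14 with LPS (0.0333 after adjustment over 7 comparisons). Untreated cells at 18 h and at 3 h had 0.146 and 0.148 Mt2 reads per Mt1 read, with an exact permutation p of 0.9714. With 1 library left out at a time the S14 ratio at 18 h was 0.727 to 0.812 of the untreated ratio, with exact permutation p between 0.0286 and 0.0571.

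**Figure D3:**
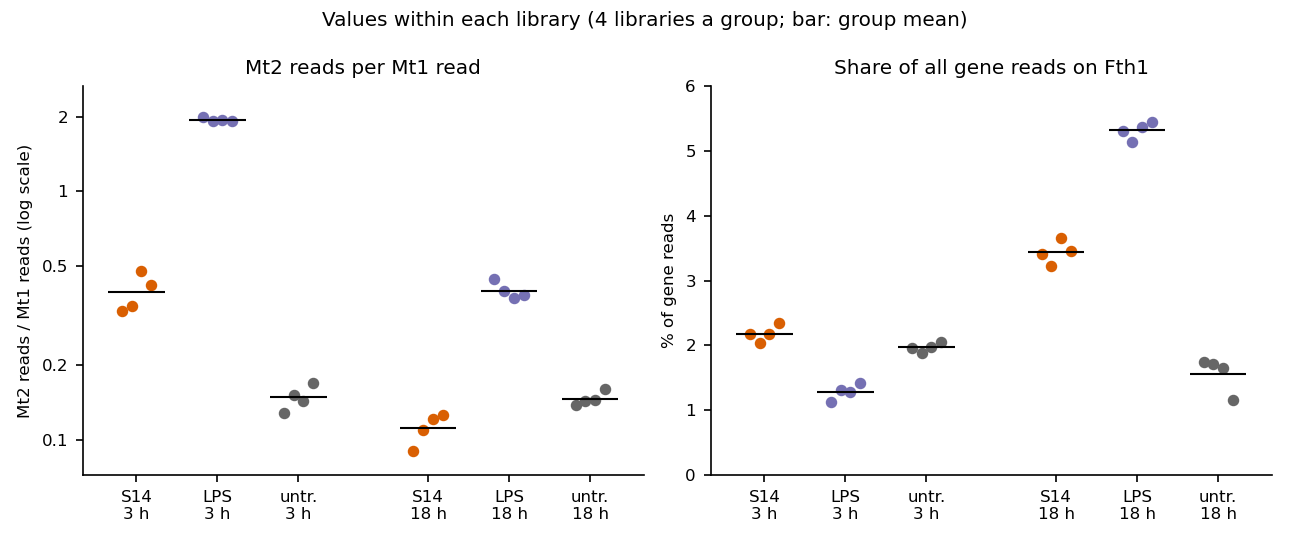
Left, Mt2 reads divided by Mt1 reads in each library, on a log axis; right, the share of all gene reads that fell on Fth1, in percent. Points are libraries and bars are group means (n = 4). The ratio was 1.91 to 1.99 with LPS at 3 h and 0.128 to 0.17 in untreated libraries at 3 h, and the Fth1 share was 5.14 to 5.45% with LPS at 18 h and 1.15 to 1.74% in untreated libraries at 18 h.

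Both zinc transporters rose at 3 h with both stimuli. Slc39a14 (ZIP14, ENSMUSG00000022094, chr14:70303469-70351425, minus strand) brings zinc, and also iron and manganese, into the cytosol. At 3 h it had 20.7, 14.3, 21.7 and 28 CPM with S14 and 38.1, 32.9, 46.9 and 60.2 CPM with LPS, against 5.42, 5.18, 7.48 and 7.92 CPM in untreated libraries. The 3 groups did not overlap. The log2 fold change was 1.71 ± 0.27 for S14 (edgeR adjusted p = 4.8e-06) and 2.78 ± 0.26 for LPS (edgeR adjusted p = 9.01e-12), and S14 was lower than LPS with a log2 fold change of -1.06 ± 0.23 (edgeR adjusted p = 1.94e-04). At 18 h it had 15.9, 10.8, 14.1 and 12.7 CPM with LPS, against 6.19, 1.26, 3.63 and 4.73 CPM in untreated libraries, a log2 fold change of 1.78 ± 0.29 (edgeR adjusted p = 1.56e-06). With S14 at 18 h the libraries had 6.38, 4.94, 9.31 and 5.61 CPM, which overlaps the untreated range. The S14 log2 fold change of 0.75 (95% interval 0.13 to 1.38) did not pass (edgeR adjusted p = 0.0718), but it passed without untreated replicate 1 (1.03; edgeR adjusted p = 0.0155). The gene rests on 1652 reads over all 24 libraries, and its untreated 18 h group on 93. No difference between the times was called for its S14 response (interaction -0.96, 95% interval -1.80 to -0.12; edgeR adjusted p = 0.112). One was called without untreated 18 h replicate 2 (-1.26; edgeR adjusted p = 0.0153) and under spike-in scaling (-2.09; edgeR adjusted p = 0.0106), there also without untreated 18 h replicate 4 (-1.50; 0.0202). The LPS interaction of -0.99 (edgeR adjusted p = 0.0357) was lost without that replicate (-0.88; edgeR adjusted p = 0.0742).

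Slc30a1 (ZnT1, ENSMUSG00000037434, chr1:191906767-191913247, plus strand), which exports zinc from the cell, rose with both stimuli at 3 h and, under TMM scaling, passed the test with neither at 18 h. At 3 h it had 29.2, 33.9, 19.6 and 27.1 CPM with S14 and 33, 27.3, 29.4 and 27.5 CPM with LPS, against 16.7, 12.2, 14.5 and 14.8 CPM in untreated libraries. All treated libraries were above all untreated ones, and the S14 and LPS libraries overlapped. Its log2 fold change was 0.91 ± 0.18 for S14 (edgeR adjusted p = 1.83e-04) and 1.01 ± 0.18 for LPS (edgeR adjusted p = 9.24e-06). Under spike-in scaling the S14 value was 1.01 (edgeR adjusted p = 0.0994), and 1.02 without untreated 18 h replicate 4 (edgeR adjusted p = 0.00451). S14 over LPS gave -0.10, with a 95% interval of -0.44 to 0.25. Untreated cells had more Slc30a1 at 18 h (42.8, 47, 37 and 32.7 CPM) than at 3 h, with a log2 fold change of 1.45 ± 0.18 (edgeR adjusted p = 6.55e-09). At 18 h the log2 fold change was -0.22 for S14 (95% interval -0.54 to 0.11) and 0.00 for LPS (95% interval -0.32 to 0.32). Under spike-in scaling the S14 value was called lower, at -1.13 (edgeR adjusted p = 0.00469), and -0.77 without untreated replicate 4 (edgeR adjusted p = 0.0348). The response at 18 h was smaller than that at 3 h by interaction terms of -1.13 ± 0.24 for S14 (edgeR adjusted p = 6.92e-04) and -1.01 ± 0.24 for LPS (edgeR adjusted p = 5.63e-04).

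The 2 SLC11 transporters differed in their timing. Slc11a2 (DMT1, ENSMUSG00000023030, chr15:100387898-100425072, minus strand) carries ferrous iron out of endosomes, and it rose in all 4 comparisons with untreated cells. At 3 h it had 131, 127, 136 and 129 CPM with S14 and 179, 204, 190 and 219 CPM with LPS, against 69.7, 68.5, 76.1 and 71.5 CPM in untreated libraries. At 18 h it had 104, 113, 110 and 106 CPM with S14 and 134, 149, 147 and 131 CPM with LPS, against 65.6, 51.9, 58.6 and 44.1 CPM in untreated libraries. At each time the LPS libraries were all above the S14 libraries, and those were all above the untreated ones. The log2 fold change was 0.87 ± 0.10 for S14 and 1.47 ± 0.10 for LPS at 3 h (edgeR adjusted p = 1.14e-09 and 2.14e-17), and 0.98 ± 0.10 for S14 and 1.35 ± 0.10 for LPS at 18 h (edgeR adjusted p = 1.16e-10 and 5.29e-16). Under spike-in scaling the S14 values were 0.98 at 3 h (edgeR adjusted p = 0.0573) and 0.06 at 18 h (edgeR adjusted p = 0.853), while leaving out untreated 18 h replicate 4 gave 0.98 at 3 h (9.36e-04) and 0.40 at 18 h (0.223). No change of either response with time was called under TMM scaling, with interaction terms of 0.11 (95% interval -0.17 to 0.38) for S14 and -0.12 (95% interval -0.39 to 0.15) for LPS. Under spike-in scaling they were -0.92 for S14 and -1.04 for LPS, of which the LPS term was called (edgeR adjusted p = 0.0441). That call was lost without untreated 18 h replicate 4 (-0.70; edgeR adjusted p = 0.0975).

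Slc11a1 (NRAMP1, ENSMUSG00000026177, chr1:74375195-74386062, plus strand) pumps divalent metals out of the phagosome. C57BL/6 mice are known to carry an allele of it that gives a non-functional protein, so only the RNA is described. At 18 h it had 256, 243, 310 and 306 CPM with S14 and 553, 603, 538 and 589 CPM with LPS, against 161, 147, 156 and 131 CPM in untreated libraries. The 3 groups did not overlap. The log2 fold change was 0.90 ± 0.08 for S14 (edgeR adjusted p = 1.37e-11) and 1.94 ± 0.08 for LPS (edgeR adjusted p = 2.86e-23), and 0.85 and 1.88 without untreated replicate 4. Under spike-in scaling the S14 value turned to -0.04 (edgeR adjusted p = 0.902), or 0.37 without that replicate (0.237), while the LPS value was 1.33 (5.14e-04). At 3 h the LPS libraries had 133, 127, 124 and 134 CPM, against 155, 161, 147 and 151 CPM in untreated libraries, a log2 fold change of -0.25 ± 0.08 (edgeR adjusted p = 0.0122) that turned to 0.11 under spike-in scaling (0.83), and S14 gave 0.13 (95% interval -0.04 to 0.29). The later response exceeded the earlier one by 0.78 ± 0.12 on the log2 scale for S14 (edgeR adjusted p = 2.85e-06; -0.29 under spike-in scaling, and 0.13 there without untreated 18 h replicate 4) and by 2.19 ± 0.12 for LPS (edgeR adjusted p = 1.58e-19).

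The ferritin heavy chain RNA was highest at 18 h with LPS. Fth1 (ENSMUSG00000024661, chr19:9980598-9985098, plus strand) encodes the ferritin heavy chain, which oxidises ferrous iron for storage, and it had the most reads of any gene in 14 of the 24 libraries. At 18 h it had 32826, 31099, 35402 and 33368 CPM with S14 and 61032, 59826, 61165 and 61022 CPM with LPS, against 15891, 15543, 14637 and 10517 CPM in untreated libraries, of which the lowest is replicate 4. The groups did not overlap. The log2 fold change was 1.23 ± 0.08 for S14 (edgeR adjusted p = 4.03e-15) and 2.10 ± 0.09 for LPS (edgeR adjusted p = 7.83e-24), and 1.11 and 1.98 without untreated replicate 4. Under spike-in scaling the values were 0.34 for S14 (edgeR adjusted p = 0.275) and 1.55 for LPS (2.39e-05), and without that replicate 0.64 (0.0407) and 1.85 (1.68e-12). As a share of all gene reads, Fth1 took 3.43 ± 0.174% with S14 and 5.31 ± 0.131% with LPS, against 1.56 ± 0.276% in untreated cells (SD, n = 4 each).

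At 3 h Fth1 moved little. It had 19424, 18916, 19552 and 21250 CPM with S14, against 16697, 16058, 16823 and 17474 CPM in untreated libraries. The S14 log2 fold change of 0.24 ± 0.08 passed narrowly (edgeR adjusted p = 0.0415), and it missed the threshold under spike-in scaling (0.35; edgeR adjusted p = 1) and in 11 of the 24 fits that each left out 1 library. Those libraries were all 4 untreated ones and S14 replicates 1, 3 and 4 at 3 h, LPS replicate 3 at 3 h and S14 replicates 1, 3 and 4 at 18 h, and the values were 0.20 to 0.26. LPS at 3 h averaged 16838 ± 1496 CPM, against 16763 ± 581 CPM in untreated cells, a log2 fold change of 0.01 (95% interval -0.16 to 0.17). Before TMM scaling the share of reads was 1.29 ± 0.117% with LPS, against 1.97 ± 0.0693% in untreated cells; the TMM factors were 0.755 to 0.773 in those LPS libraries and 1.176 to 1.182 in the untreated ones. The response at 18 h exceeded that at 3 h by 0.99 ± 0.12 on the log2 scale for S14 (edgeR adjusted p = 2.45e-08; -0.01 under spike-in scaling, and 0.29 there without untreated 18 h replicate 4) and by 2.10 ± 0.12 for LPS (edgeR adjusted p = 8.1e-19).

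With LPS the RNA of the iron exporter ferroportin was lower at 3 h and higher at 18 h. Slc40a1 (ENSMUSG00000025993, chr1:45908068-45926523, minus strand) had 8.38, 7.24, 8.5 and 5.97 CPM with LPS at 3 h, against 21.9, 21.2, 20.2 and 21.7 CPM in untreated libraries. That is a log2 fold change of -1.49 ± 0.23 (edgeR adjusted p = 4.09e-07), with all LPS libraries below all untreated ones. At 18 h it had 71.9, 90.3, 42.3 and 42.4 CPM with LPS, against 33.1, 41.7, 39.3 and 27.8 CPM in untreated libraries. The log2 fold change was 0.79 ± 0.17 (edgeR adjusted p = 1.53e-04), and 0.69 without untreated replicate 4. Under spike-in scaling it was 0.15 (edgeR adjusted p = 0.726), and 0.46 without that replicate (0.199). The LPS libraries at 18 h fall into a high and a low pair, and the low pair lies just above the highest untreated library. The interaction term for LPS was 2.28 ± 0.29 (edgeR adjusted p = 8.9e-09).

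With S14 at 3 h ferroportin averaged 18 ± 3.47 CPM, against 21.3 ± 0.74 CPM in untreated cells, a log2 fold change of -0.24 (95% interval -0.64 to 0.16). At 18 h S14 gave 25.1, 24.1, 23.5 and 25.4 CPM, all below the untreated libraries, and a log2 fold change of -0.54 ± 0.18 (edgeR adjusted p = 0.0254). That call was lost in 5 of the 24 fits without 1 library, namely untreated replicates 2 and 3 and S14 replicates 1, 2 and 3 at 18 h, with values of -0.45 to -0.55. The S14 interaction of -0.30 was not called (edgeR adjusted p = 0.504), but under spike-in scaling it was (-1.30; edgeR adjusted p = 0.0316). That spike-in call was lost without untreated 18 h replicate 4 (-0.98; edgeR adjusted p = 0.0768). S14 over LPS was 1.25 ± 0.23 at 3 h and -1.33 ± 0.18 at 18 h (edgeR adjusted p = 1.51e-05 and 7.16e-08).

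The transferrin receptor RNA fell in 1 of the 4 comparisons with untreated cells. Tfrc (ENSMUSG00000022797, chr16:32608920-32632794, plus strand) had 11.9, 9.56, 24.8 and 32.8 CPM with LPS at 18 h, against 69.3, 69.2, 78.8 and 82.8 CPM in untreated libraries. It fell by 1.91 ± 0.21 on the log2 scale (edgeR adjusted p = 2.07e-08), with no overlap, and -1.85 without untreated replicate 4. Among these LPS libraries the pair lowest for Tfrc, replicates 1 and 2, is the pair highest for Slc40a1. S14 at 18 h gave 91.3, 86.9, 104 and 92.3 CPM, all above the untreated libraries, but the log2 fold change of 0.32 (95% interval -0.06 to 0.70) did not pass (edgeR adjusted p = 0.226); it did in a fit of those 2 groups alone (edgeR adjusted p = 0.042), and under spike-in scaling it was -0.73. S14 over LPS was 2.23 ± 0.21 at 18 h (edgeR adjusted p = 2.61e-09). At 3 h the log2 fold change was 0.03 for S14 (95% interval -0.37 to 0.42) and -0.09 for LPS (95% interval -0.49 to 0.32).

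S14 and LPS differed in 7 of the 9 genes at 3 h, with 3 higher and 4 lower in S14, beside 46.1% of all genes called (23.7% higher and 22.4% lower). At 18 h they differed in 8 of the 9, with 1 higher and 7 lower in S14, beside 42.6% of all genes (21.3% in each direction); the exception at 18 h was Slc30a1. Under spike-in scaling 5 were called at 3 h, without Slc11a1 (0.13; edgeR adjusted p = 0.837) and Fth1 (0.03; 0.97). There 6 were called at 18 h, without Mt1 (-0.61; edgeR adjusted p = 0.175) and Slc11a2 (-0.70; 0.105), although all 8 were called once untreated replicate 4 was left out. The Fth1 difference at 3 h, 0.23 under TMM scaling (edgeR adjusted p = 0.019), was also lost in DESeq2 (adjusted p = 0.0509) and in edgeR without S14 replicate 4 (0.20; adjusted p = 0.0751) or LPS replicate 1 (0.17; adjusted p = 0.1). Comparisons with untreated cells share those untreated libraries between S14 and LPS. The S14 response differed between times in 5 genes, with 2 responses higher and 3 lower at 18 h, beside 16.6% of all genes (7.61% higher and 8.98% lower). The LPS response differed in 8 genes, with 3 higher and 5 lower at 18 h, beside 51.2% of all genes (25.1% higher and 26.1% lower). Untreated cells differed between 18 h and 3 h in 6 of the 9, with 2 higher and 4 lower at 18 h, beside 38.8% of all genes (19.2% higher and 19.6% lower). Under spike-in scaling 4 were called, all higher at 18 h, among them Slc11a1 (0.76; edgeR adjusted p = 0.039) and Tfrc (1.17; 0.0116), which were not called under TMM scaling. There Slc11a2 (0.39) and Fth1 (0.49) did not pass, and 2 genes were called without untreated 18 h replicate 4.

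Ordered by their mean, the 6 groups had the following levels. Mt2 ran LPS 3 h (3761 CPM), S14 3 h (179), LPS 18 h (107), untreated 3 h (59.8), untreated 18 h (41.4) and S14 18 h (24.8), and each step passed the edgeR test. Mt1 ran in the order LPS 3 h (1946 CPM), S14 3 h (454), untreated 3 h (403), untreated 18 h (283), LPS 18 h (268) and S14 18 h (222), where the second and the fourth step did not pass. Slc39a14 ran LPS 3 h (44.5 CPM), S14 3 h (21.2), LPS 18 h (13.4), S14 18 h (6.56), untreated 3 h (6.5) and untreated 18 h (3.95), and its last 2 steps did not pass; the last, untreated 18 h under untreated 3 h, did so without untreated 18 h replicate 1 (-1.02; edgeR adjusted p = 0.0129) or 4 (-0.85; edgeR adjusted p = 0.046). These 3 genes shared their first 2 groups.

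Fth1 ordered as LPS 18 h (60761 CPM), S14 18 h (33174), S14 3 h (19785), LPS 3 h (16838), untreated 3 h (16763) and untreated 18 h (14147), where only the step from LPS 3 h to untreated 3 h did not pass; the last step, untreated 18 h under untreated 3 h, passed with untreated replicate 4 (-0.24; edgeR adjusted p = 0.0165) and not without it (-0.13; edgeR adjusted p = 0.116). Slc11a1 ordered as LPS 18 h (571 CPM), S14 18 h (279), S14 3 h (168), untreated 3 h (154), untreated 18 h (149) and LPS 3 h (130), with the third and the fourth step not passing. Slc11a2 had LPS 3 h (198 CPM), LPS 18 h (140), S14 3 h (131), S14 18 h (108), untreated 3 h (71.4) and untreated 18 h (55), with the second step not passing. For Slc40a1 the order was LPS 18 h (61.7 CPM), untreated 18 h (35.5), S14 18 h (24.5), untreated 3 h (21.3), S14 3 h (18) and LPS 3 h (7.52), with the third and the fourth step not passing. For Slc30a1 only the last step, S14 3 h (27.5 CPM) over untreated 3 h (14.6), passed, and for Tfrc only the last, LPS 3 h (58.4 CPM) over LPS 18 h (19.8).

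Across the set, spike-in scaling left 2 of the 5 S14 calls and 6 of the 7 LPS calls at 3 h. With S14 those of Mt2 (1.70) and Slc39a14 (1.85) stayed past the threshold and those of Slc30a1, Slc11a2 and Fth1 did not. Once untreated 18 h replicate 4 was left out, those of Slc30a1 and Slc11a2 also passed. With LPS the call of Slc11a1 was lost, while Mt2 stood at 6.30, Slc39a14 at 3.10 and Slc40a1 at -1.15. At 18 h the LPS changes of Fth1, Slc11a1 and Tfrc (-2.49) stayed past it, and the S14 rises of Fth1, Slc11a1 and Slc11a2 did not. Without untreated replicate 4 the S14 rise of Fth1 did (0.64, edgeR adjusted p = 0.0407). The S14 decreases of Mt1, Mt2 and Slc40a1 at 18 h were larger under spike-in scaling, at -1.31, -1.72 and -1.42. They were -0.87, -1.22 and -1.11 without that replicate. Over all genes the median shift with this scaling was -0.97, or -0.48 without it.

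**Figure D4:**
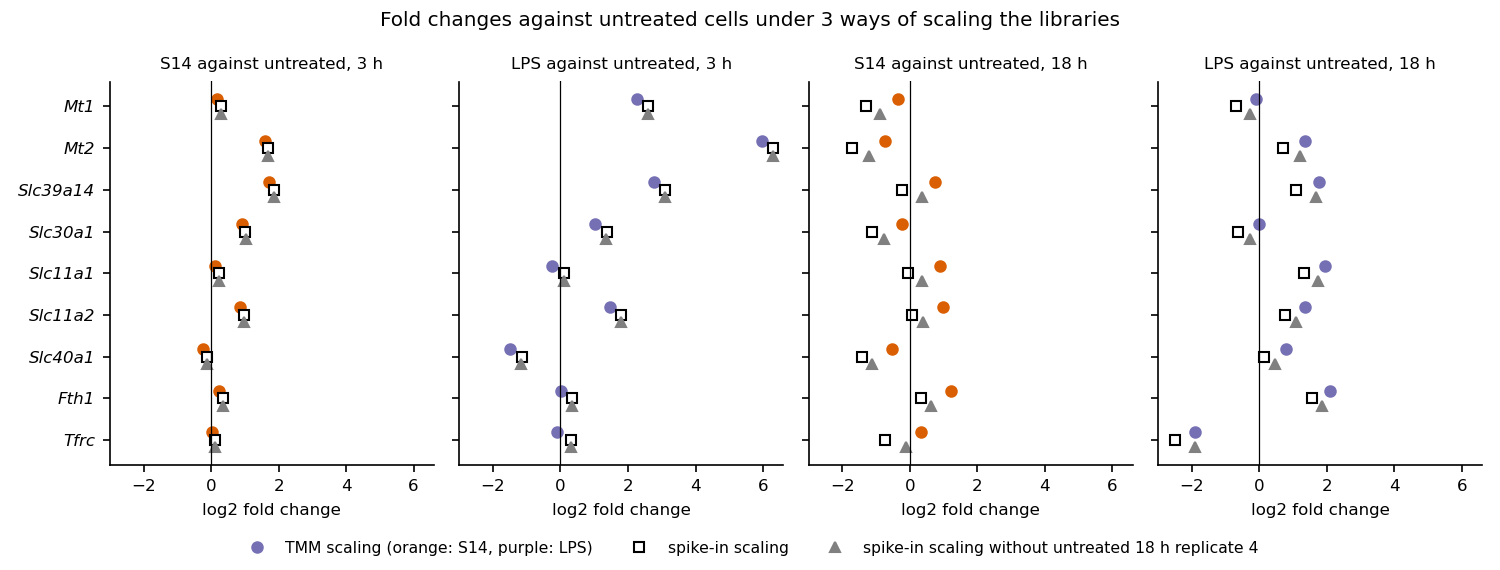
Log2 fold changes of the 9 genes against untreated cells under TMM scaling (circles), spike-in scaling (squares) and spike-in scaling without untreated replicate 4 at 18 h (triangles). With LPS at 3 h Slc11a1 lies on either side of 0 (-0.25 under TMM and 0.11 under spike-in scaling). At 18 h with S14 the spike-in values of Fth1, Slc11a1 and Slc11a2 (0.34, -0.04 and 0.06) lie below their TMM values (1.23, 0.90 and 0.98). Without untreated replicate 4 the spike-in values are 0.64, 0.37 and 0.40.

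Marker sums differed between the groups at 18 h. Macrophage markers summed to 33714 to 34903 CPM with S14 and 17462 to 26166 CPM with LPS, against 33309 to 47522 CPM in untreated libraries. The summed B cell markers were 193 to 230 CPM with S14 and 111 to 126 CPM with LPS, against 322 to 405 CPM in untreated libraries. Neutrophil and precursor markers summed to 41.2 to 50.4 CPM with LPS, against 1.74 to 5.61 CPM in untreated libraries, and stromal markers to 15 to 21.8 CPM with LPS, against 0.699 to 2.52 CPM. At 3 h the T and NK cell markers summed to 23.1 to 41.5 CPM with LPS, against 5.42 to 8.58 CPM in untreated libraries. Each list has 10 genes, of which all were tested for macrophages and 2 for each of the other cell types named here; Col3a1, Pdgfra and Lum of the stromal list and Cd3g of the T and NK cell list had no read. Their part in the changes of the metal genes was not tested.

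Of 24 other zinc genes 15 were tested, and S14 raised 1 at 3 h and 3 at 18 h and lowered none, beside 15.2% and 24.3% of all genes called. LPS raised 5 and lowered 6 at 3 h, and raised 6 and lowered 5 at 18 h, beside 55.5% and 55.6% of all genes. Under spike-in scaling S14 raised none and lowered none at 3 h and 9 at 18 h (raised 1 and lowered 2 at 18 h without untreated replicate 4), and LPS raised 4 and lowered 1 at 3 h, and raised 1 and lowered 7 at 18 h. Of all 11717 genes that scaling called 374 (346 higher) with S14 and 3296 (2341 higher) with LPS at 3 h. At 18 h it called 7639 (106 higher) with S14 and 5221 (695 higher) with LPS. Without untreated replicate 4 the S14 count at 18 h was 2290 (133 higher). The list's median log2 fold change was between -0.08 and 0.08 in these 4 comparisons. At 3 h Slc30a4, which moves zinc into vesicles, averaged 61.6 ± 4.15 CPM with LPS, against 15.9 ± 1.98 CPM in untreated cells (log2 fold change 1.95), and Slc30a6, which loads zinc into the secretory pathway, had a log2 fold change of 0.97. Slc30a5, the partner of Slc30a6, fell by 0.77 on the log2 scale with LPS at 3 h, a call lost under spike-in scaling (-0.40; edgeR adjusted p = 0.425). The importer Slc39a13 fell by 1.25 with LPS at 3 h and had a log2 fold change of 1.01 with LPS at 18 h, which under spike-in scaling was 0.44 (edgeR adjusted p = 0.274). With S14 it had 0.48 at 3 h, a call lost under spike-in scaling (0.58; edgeR adjusted p = 0.725) and without untreated replicates 2 or 4 or S14 replicates 3 or 4, and 0.58 at 18 h, which turned to -0.26 under spike-in scaling.

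The plasma membrane importer Slc39a4 was higher at 18 h with both stimuli, at 10.7 ± 2.41 CPM with S14 and 10.8 ± 2.76 CPM with LPS, against 3.37 ± 1.42 CPM in untreated cells. The S14 log2 fold change of 1.68 was 0.84 under spike-in scaling (edgeR adjusted p = 0.0742), and 1.19 without untreated replicate 4 (0.0211). With LPS at 3 h Slc39a4 fell by 1.03 with overlapping libraries, and under spike-in scaling that call was lost (-0.73; edgeR adjusted p = 0.224). Slc39a1 was higher with S14 at 18 h (log2 fold change 0.65), which turned to -0.13 under spike-in scaling. With LPS at 18 h Slc39a1 had a log2 fold change of 0.91, and 0.45 under spike-in scaling (edgeR adjusted p = 0.195). The importer Slc39a10 and its family member Slc39a11 fell by 1.75 and by 1.07 on the log2 scale with LPS at 18 h.

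Among 26 listed iron genes 16 were tested. S14 raised 4 at 3 h, and raised 3 and lowered 2 at 18 h, while LPS raised 9 and lowered 2 at 3 h, and raised 5 and lowered 7 at 18 h. Among all tested genes 15.2% were called with S14 (9.05% higher) and 55.5% with LPS (25.3% higher) at 3 h. At 18 h these shares were 24.3% (12.6% higher) and 55.6% (27.3% higher). Under spike-in scaling S14 raised 3 at 3 h, and raised 1 and lowered 10 at 18 h (raised 2 and lowered 1 without untreated replicate 4), and LPS raised 8 at 3 h, and raised 4 and lowered 8 at 18 h. Of all 11717 genes that scaling called 374 (346 higher) with S14 and 3296 (2341 higher) with LPS at 3 h. At 18 h it called 7639 (106 higher) with S14 and 5221 (695 higher) with LPS. Without untreated replicate 4 the S14 count at 18 h was 2290 (133 higher). The list's median log2 fold change was 0.05 for S14 and 0.42 for LPS at 3 h, and -0.09 for S14 and 0.20 for LPS at 18 h. Lcn2, the siderophore-binding protein lipocalin 2, averaged 22.6 ± 8.42 CPM with S14 and 956 ± 106 CPM with LPS at 18 h, against 0.539 ± 0.743 CPM in untreated cells. At 3 h it averaged 13.7 ± 2.28 CPM with S14 and 99.8 ± 27.9 CPM with LPS, against 0.412 ± 0.824 CPM, which rests on 7 reads, in untreated cells. Cp, the ferroxidase ceruloplasmin that works with ferroportin, averaged 16.6 ± 3.8 CPM with S14 and 241 ± 29.9 CPM with LPS at 3 h, against 1.95 ± 0.797 CPM in untreated cells. At 18 h Cp averaged 44.2 ± 4.34 CPM with S14 and 169 ± 20.7 CPM with LPS, against 18.1 ± 3.31 CPM. The S14 log2 fold change of Cp at 18 h was 1.30, and under spike-in scaling 0.26 (edgeR adjusted p = 0.496), or 0.94 without untreated replicate 4 (0.00808).

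The mitochondrial iron importer Slc25a37 had log2 fold changes of 0.92 at 3 h and 0.52 at 18 h with S14, and under spike-in scaling 1.03 at 3 h (edgeR adjusted p = 0.0514) and -0.36 at 18 h. Leaving out untreated 18 h replicate 4 gave spike-in values of 1.04 at 3 h (edgeR adjusted p = 5.45e-04) and -0.06 at 18 h. LPS gave 0.72 at 3 h and 1.30 at 18 h, and both stayed called under spike-in scaling (1.07 and 0.79). Steap4, a metalloreductase, had 425 reads over the LPS libraries at 3 h and none over the untreated ones, at least 159-fold higher against a floor of 3 reads over the group. Hamp, which encodes hepcidin, the hormone that triggers the degradation of ferroportin, had 168 reads with LPS at 3 h, against 2 reads in untreated libraries, a ratio of 94.4 with a 95% counting interval of 25.7 to 786. Trf, transferrin, fell by 0.62 on the log2 scale with S14 and by 1.78 with LPS at 18 h. Fbxl5, the iron sensor that targets an iron regulatory protein for destruction, averaged 70.4 ± 8.8 CPM with LPS at 18 h, against 24.3 ± 2.65 CPM in untreated cells. At 3 h Fbxl5 averaged 70.8 ± 5.09 CPM with LPS, against 25.3 ± 3.91 CPM in untreated cells.

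Of 15 heme genes 13 were tested. S14 raised 3 and lowered 2 at each time, and LPS raised 2 and lowered 7 at 3 h, and raised 7 and lowered 5 at 18 h. Among all tested genes 15.2% were called with S14 (9.05% higher) and 55.5% with LPS (25.3% higher) at 3 h. At 18 h these shares were 24.3% (12.6% higher) and 55.6% (27.3% higher). Under spike-in scaling S14 raised 1 at 3 h and lowered 9 at 18 h (2 without untreated replicate 4), and LPS raised 2 at 3 h, and raised 5 and lowered 6 at 18 h. Of all 11717 genes that scaling called 374 (346 higher) with S14 and 3296 (2341 higher) with LPS at 3 h. At 18 h it called 7639 (106 higher) with S14 and 5221 (695 higher) with LPS. Without untreated replicate 4 the S14 count at 18 h was 2290 (133 higher). The list's median log2 fold change was -0.11 for S14 and -0.29 for LPS at 3 h, and -0.02 for S14 and 0.32 for LPS at 18 h. Hmox1, which breaks heme down and frees its iron, averaged 2999 ± 266 CPM with LPS at 18 h, against 233 ± 62.7 CPM in untreated cells (log2 fold change 3.69). With S14 at 3 h Hmox1 averaged 373 ± 56.1 CPM, against 220 ± 13.3 CPM in untreated cells (log2 fold change 0.76), and under spike-in scaling the call was lost (0.88; edgeR adjusted p = 0.282; 0.00228 without untreated 18 h replicate 4). With LPS at 3 h Hmox1 fell by 0.39, with overlapping libraries, and stood at 0.00 under spike-in scaling. Slc48a1, which carries heme out of the phagolysosome, had log2 fold changes of 0.91 for S14 and 2.27 for LPS at 18 h. Its S14 value was -0.06 under spike-in scaling, and 0.39 there without untreated replicate 4. With LPS at 3 h Slc48a1 fell by 1.03. That value was -0.70 under spike-in scaling (edgeR adjusted p = 0.074), and -0.71 there without untreated 18 h replicate 4 (edgeR adjusted p = 0.00658). Alas1, the first enzyme of heme synthesis, had log2 fold changes of 1.06 for S14 and 1.00 for LPS at 3 h. At 18 h Alas1 had 0.73 for S14 and 1.81 for LPS. The S14 value at 18 h was -0.28 under spike-in scaling, and 0.28 there without untreated replicate 4.

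Bach1, a heme-sensing repressor of Hmox1, had a log2 fold change of 1.80 with LPS at 3 h and fell by 0.77 with LPS at 18 h. With S14 it fell by 0.53 at 3 h, a call lost under spike-in scaling (-0.41; edgeR adjusted p = 1), and by 0.40 at 18 h. Blvrb, a biliverdin reductase, had 0.75 with S14 at 18 h, and -0.30 under spike-in scaling, or 0.34 there without untreated replicate 4. With LPS at 18 h Blvrb had 1.69, and 0.95 under spike-in scaling (edgeR adjusted p = 0.0141). The heme exporter Flvcr1 fell at 3 h by 0.76 with S14 and, with overlapping libraries, by 0.52 with LPS, and with LPS at 18 h it had 0.46. Under spike-in scaling all 3 calls of Flvcr1 were lost (-0.63, -0.11 and -0.14; edgeR adjusted p = 0.579, 0.836 and 0.74). Spic, a transcription factor of iron-recycling macrophages, averaged 29.5 ± 2.95 CPM with LPS at 18 h, against 0.85 ± 0.689 CPM in untreated cells.

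Of 16 copper and manganese genes 13 were tested, and S14 raised 3 at 3 h and 5 at 18 h and lowered none. LPS raised 8 and lowered 2 at each time. Among all tested genes 15.2% were called with S14 (9.05% higher) and 55.5% with LPS (25.3% higher) at 3 h. At 18 h these shares were 24.3% (12.6% higher) and 55.6% (27.3% higher). Under spike-in scaling S14 raised 2 at 3 h, and raised 1 and lowered 7 at 18 h (raised 1 and lowered 2 without untreated replicate 4), and LPS raised 6 and lowered 1 at 3 h, and raised 4 and lowered 3 at 18 h. Of all 11717 genes that scaling called 374 (346 higher) with S14 and 3296 (2341 higher) with LPS at 3 h. At 18 h it called 7639 (106 higher) with S14 and 5221 (695 higher) with LPS. Without untreated replicate 4 the S14 count at 18 h was 2290 (133 higher). The list's median log2 fold change was 0.15 for S14 and 0.53 for LPS at 3 h, and 0.26 for S14 and 0.66 for LPS at 18 h. Sod2, the mitochondrial manganese superoxide dismutase, had log2 fold changes of 1.75 for S14 and 2.58 for LPS at 3 h, and of 1.71 for S14 and 4.26 for LPS at 18 h. The copper importer Slc31a1 had 0.88 with S14 at 3 h, and 0.47 with S14 and 1.79 with LPS at 18 h. Its S14 value at 3 h was 1.00 under spike-in scaling (edgeR adjusted p = 0.0887). Without untreated 18 h replicate 4 it was also 1.00 there (edgeR adjusted p = 4.93e-04). Its S14 value at 18 h was -0.54 under spike-in scaling, and 0.03 without that replicate. At 3 h its relative Slc31a2 had 1.12 with S14 and 1.48 with LPS. The Slc31a2 values at 18 h were 0.43 with S14 (-0.65 under spike-in scaling, and 0.06 there without untreated replicate 4) and 1.69 with LPS.

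Sco1, a copper chaperone of cytochrome oxidase assembly, had 2.23 and 1.72 with LPS at 3 h and 18 h, while its relative Sco2 fell by 1.47 with LPS at 3 h. Atox1, another copper chaperone, had 0.38 with S14 at 18 h. LPS gave 0.23 at 18 h, and Atox1 fell by 0.31 with LPS at 3 h. Under spike-in scaling none of these passed: S14 gave -0.65 at 18 h, and LPS gave -0.51 at 18 h and 0.01 at 3 h. Leaving out untreated replicate 4 gave -0.06 with S14 and 0.08 with LPS at 18 h.

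**Figure D5:**
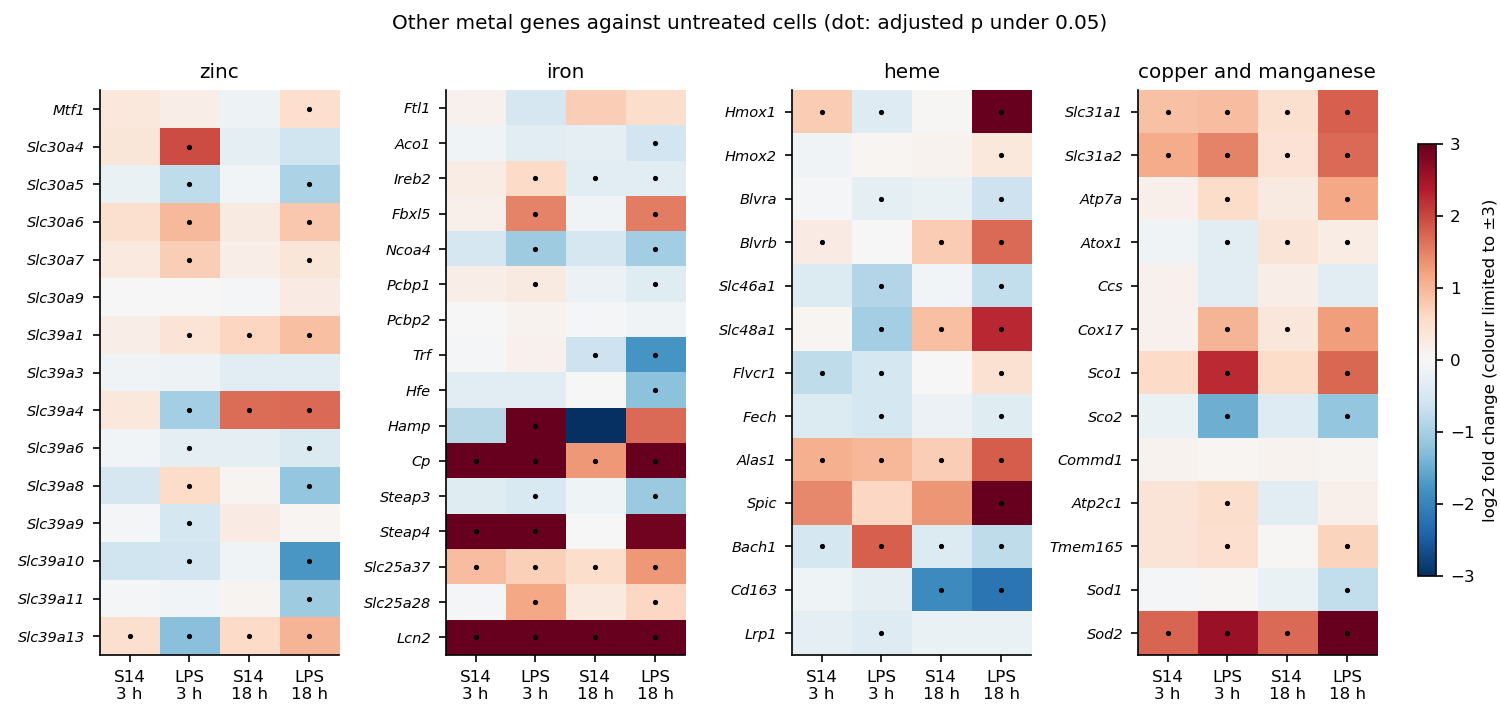
Log2 fold change against untreated cells (colour, limited to ±3) of the tested genes of the zinc, iron, heme and copper and manganese lists, with 1 column for each stimulus and time. Dots mark an adjusted p under 0.05 in the edgeR fit. Lcn2, Sod2, Cp, Slc25a37, Alas1, Bach1, Slc31a1 and Slc31a2 carry a dot in all 4 columns. Hmox1 and Slc48a1 have their highest values with LPS at 18 h (3.69 and 2.27).

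Profiles over the 6 groups were compared as the mean absolute difference of group mean log2 CPM after centring each gene on its own mean, over 9059 genes with at least 10 CPM in some group. Fth1 and Slc11a1 lay 0.12 apart, over ranges of 2.12 and 2.13 on the log2 scale, and were the closest pair among the 9. Ankrd50 was the closest gene of all to each of them, at 0.10, and Tm7sf3 stood at 0.12 from both. The genes closest to Mt1 were Fzd5 (0.09), Cenpj (0.16) and Mtmr14 (0.16), and those closest to Mt2 were Spsb1 (0.33), Dusp2 (0.35) and Il27 (0.43). Mt1 and Mt2 themselves lay 1.15 apart.

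Slc39a14 was closest to Klf7 (0.16), Gch1 (0.17) and Rcl1 (0.17), and Slc30a1 to Ptafr (0.11), Ctso (0.15) and Cd302 (0.16). Slc11a2 was closest to Mrpl52 (0.05), Ubr4 (0.14) and Psme2b (0.14). Slc40a1 was closest to Arid3a (0.16), Atg4c (0.17) and Akap17b (0.18), and Tfrc to Fcrls (0.10), Snord13 (0.15) and C1qtnf12 (0.15). Mgst1 (0.11) ranked between Ankrd50 and Tm7sf3 for Slc11a1. These distances describe 6 group means and carry no test.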

How the data were processed

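The authors deposited whole read counts per gene with no normalization, and a second table whose values are a signal: reads divided by 1 size factor per library, which gave back whole reads to within 8.6e-10. Only the second holds the 114 spike-in RNAs. Members' reads differed by at most 0.53% between the tables, the largest difference being that of Fth1. Per the submitters' processing notes the tools were cutadapt 1.18, FastQC, STAR 2.6.1a, featureCounts 1.6.4, Subread and DESeq2 on GRCm38. Strand setting, multi-mapping reads and annotation: not given in the sources used here. Column headers say "Veh" where the labels say untreated. Libraries are 4 a group; nothing says that they are separate animals, so p-values measure the spread between these libraries.

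The counts were analysed with 7 ribosomal entries (0.132 to 0.468% of reads) set aside: filterByExpr by group (minimum count 10, minimum total 15), TMM, and a robust quasi-likelihood fit in edgeR 4.0.16 with 1 mean per group over 24 libraries (18 residual degrees of freedom). Benjamini-Hochberg adjustment ran over 11717 genes. Log2 levels used a prior count of 2. An SE is the size of a log2 change over the root of its F statistic, and intervals are 95%. The fit was tested on simulated counts. A replicate block, RLE scaling, DESeq2 1.42.0, no filter, only the groups compared, the second table's reads, spike-in scaling and the omission of each library were alternatives. Intervals and floors on reads cover counting error only.

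The 9 genes and the other lists were chosen with earlier results of these data known. Of each list the text names up to 4 called genes with the largest change per comparison with untreated cells at 10 CPM or more, and for each of the 9 the 3 genes with the closest profile; the Mt2 to Mt1 ratio, the search for iron-responsive elements and the counts of each list under spike-in scaling were added after values were seen. Gene positions are from GENCODE M21. Overlapping genes on the other strand had few reads over all libraries: Gm45774 (Mt2) 1, 1700034H15Rik (Slc30a1) 28 and Gm5475 (Slc11a2) 27. The pseudogenes Fth-ps2 and Fth-ps3 had 0 and 4 reads.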

Additional observations from a re-analysis of the deposited data

Results flagged for a closer look

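Among the 54 sets of 4 libraries (9 genes in 6 groups) 1 held a library far from the rest: Fth1 with LPS at 18 h, where the lowest library (59826 CPM) lay apart by 0.893 of the group's range, although the whole range ended at 61165 CPM. Chance gives about 1 such set in 20.

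Responses that differed between 18 h and 3 h, as interaction terms on the log2 scale in the edgeR fit, were for S14 those of Fth1 (0.99), Slc11a1 (0.78), Mt2 (-2.33), Mt1 (-0.52) and Slc30a1 (-1.13). For LPS they were those of Slc39a14 (-0.99), Tfrc (-1.82), Fth1 (2.10), Slc40a1 (2.28), Slc11a1 (2.19), Mt2 (-4.62), Mt1 (-2.35) and Slc30a1 (-1.01). The Slc39a14 term (edgeR adjusted p = 0.0357) missed the threshold without LPS replicates 3 or 4 or untreated replicates 1 or 2 at 3 h, or LPS replicates 2 or 4 or untreated replicates 1 or 4 at 18 h, with values between -0.71 and -0.96. Under spike-in scaling the S14 terms of Fth1 and Slc11a1 were -0.01 and -0.29, and there without untreated 18 h replicate 4 they were 0.29 and 0.13.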

How the results depend on the processing

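Of the 81 fold changes of the 9 genes, RLE scaling and the reads of the second table left all 81 on their side of the threshold, DESeq2 80, no filter 79 and a fit of only the groups compared 77. A sign was counted as turned only where the change was called in 1 of the fits. Spike-in scaling kept 56 of 81, or 66 without untreated replicate 4 at 18 h. The cause was not tested.

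Under spike-in scaling, with the value without untreated replicate 4 after it, the members called were 2 for S14 at 3 h (4 without it) and 4 for untreated cells over time (2 without it). Genes called numbered 374 (798) for S14 at 3 h, 346 (679) of them higher, and 3296 (4714) for LPS at 3 h. For S14 at 18 h they numbered 7639 (2290), with 106 (133) higher. For LPS at 18 h they numbered 5221 (4018), with 695 (1445) higher. S14 against LPS gave 2232 (3499) with 612 (1066) higher at 3 h, and 1915 (3697) with 519 (869) higher at 18 h. Untreated cells over time gave 5639 (2422), with 5426 (2050) higher. The S14 response over time gave 4115 (1427) genes, 20 (26) higher, and the LPS response 381 (858) higher.

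Signs turned under spike-in scaling for Slc11a1 with LPS at 3 h (0.11; 0.11). With S14 at 18 h they turned for Slc11a1 (-0.04), Slc39a1 (-0.13; -0.03), Slc39a13 (-0.26; -0.02), Slc25a37 (-0.36; -0.06), Slc48a1 (-0.06), Blvrb (-0.30), Alas1 (-0.28), Slc31a1 (-0.54), Slc31a2 (-0.65) and Atox1 (-0.65; -0.06). Without untreated replicate 4 the values were above 0 for Slc11a1 (0.37), Slc48a1 (0.39), Blvrb (0.34), Alas1 (0.28), Slc31a1 (0.03) and Slc31a2 (0.06). In untreated cells over time signs turned for Mt1 (0.30), Mt2 (0.31), Slc11a1 (0.76), Slc11a2 (0.39; 0.05) and Fth1 (0.49; 0.20), and in the S14 response over time for Slc11a1 (-0.29) and Fth1 (-0.01). Leaving out that replicate gave -0.14 for Mt1, -0.19 for Mt2 and 0.35 for Slc11a1 in untreated cells over time. The S14 terms of Slc11a1 and Fth1 were then 0.13 and 0.29.

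Same-numbered libraries did not deviate together (60 pairs, r -0.101 to 0.143, median 0.026), so the numbers were not used as pairs. A replicate block added 2 calls and removed none: Slc39a14 for S14 at 18 h (0.78; edgeR adjusted p = 0.0233) and for untreated cells over time (-0.77; edgeR adjusted p = 0.0195). Without untreated replicate 4 the fall of Fth1 in untreated cells over time was lost (-0.13; edgeR adjusted p = 0.116).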
